A study of Mus musculus with 15 samples.

Results

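The SSBP, LDB and LMO cofactor genes were examined in 2 mouse tumour lines in which Ssbp4 had been altered. The 10 genes were Ssbp2, Ssbp3, Ssbp4, Ldb1, Ldb2, Lmo1, Lmo2, Lmo4, Isl1 and Rlim, taken by symbol, and all 10 were found in both deposited tables, which list 54343 genes for MC38 cells and 55303 for B16-F10 cells. Polyadenylated RNA was sequenced in 15 libraries. MC38, a colon adenocarcinoma line, gave 3 libraries from cells with stable overexpression (OE) of murine Ssbp4 cDNA from the retroviral vector pMSCV-IRES-EGFP, and 4 wild-type (WT) libraries. B16-F10, a melanoma line, gave 4 libraries from knockout (KO) cells, electroporated with Cas9 and a mixture of guide RNAs against Ssbp4, and 4 WT libraries. The protocol describes a control guide against an intergenic site for the B16-F10 arm, and the labels name no vector-only group for MC38. The KO cells are not described as clones. Whether replicate libraries stem from different cultures is not stated, and the p-values reflect only library-to-library spread, which may be technical.

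LDB proteins are adaptors that pair with each other and hold the LIM domains of LMO and LIM-homeodomain proteins, so that transcription factors at separate DNA sites are brought into one complex. SSBP2, SSBP3 and SSBP4 bind LDB1 directly, and members of this family are known to shield it from breakdown driven by the ubiquitin ligase RLIM. LMO proteins have LIM domains and no DNA-binding domain of their own, whereas ISL1 binds DNA through a homeodomain. These complexes are best known from blood, endothelium, neurons and pancreatic islets.

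Values are FPKM, that is, fragments scaled by gene length and by the mapped depth of the library, and depth was estimated at 32.4 to 48.7 M fragments per library. All 7 melanocyte markers were at 1 FPKM or more in B16-F10, and summed to 13600 to 14200 FPKM in KO and 11000 to 14100 FPKM in WT. In MC38 they summed to 0.934 to 1.44 FPKM in OE and 1.30 to 2.11 FPKM in WT, although MC38 too is labelled as melanoma tissue. Of 8 epithelial markers MC38 had only Krt8 at 1 FPKM or more in OE and Krt8 and Krt18 in WT, and the intestinal factor Cdx2 was listed at 0 in both. Their sums were nonetheless higher in OE, at 8.96 to 10.8 FPKM, than in WT, at 6.68 to 8.86 FPKM. The 5 endothelial markers summed to 2.94 to 3.63 FPKM in OE and 4.33 to 5.72 FPKM in WT, and only Egfl7 reached 1 FPKM. In B16-F10 they summed to 15.7 to 17.5 FPKM in KO, and in WT the sums reached from 11.3 FPKM into that range. Of 6 leukocyte markers only Cd68 was at 1 FPKM or more in each line. They summed to 3.04 to 4.16 FPKM in MC38 OE and 2.06 to 2.86 FPKM in MC38 WT, which did not overlap, and to 2.08 to 3.66 FPKM in B16-F10 KO and 1.27 to 2.87 FPKM in B16-F10 WT. None of 5 erythroid markers reached 1 FPKM. The part of these differences in the results was not tested. B16-F10 WT libraries stood apart from each other, with libraries 3 and 4 both at 17.8 and libraries 1 and 2 at -9.42 and -10.4 on a first principal component that held 42.8% of the variance. The KO libraries lay between -7.81 and -1.91 on it.

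The endogenous promoters of 3 of the genes show the kind of sequence from which they are transcribed. They are Ssbp4, the altered gene, whose retroviral copy is a cDNA, Ldb1, which passed the test in both lines, and Isl1, which had the largest rise in MC38 among the 10 genes apart from Ssbp4. Each run holds the 250 bases before the most upstream start that RefSeq annotates on GRCm38.p6, an earlier build than the GRCm39 named in the submitters' processing notes. Capitals mark 2 motifs known to be held together by LDB1 complexes in blood cells, the E-box CANNTG and the GATA site GATAA, read on both strands, and no marked motif overlaps another.
Ssbp4, chr8:70608315-70608564, minus strand: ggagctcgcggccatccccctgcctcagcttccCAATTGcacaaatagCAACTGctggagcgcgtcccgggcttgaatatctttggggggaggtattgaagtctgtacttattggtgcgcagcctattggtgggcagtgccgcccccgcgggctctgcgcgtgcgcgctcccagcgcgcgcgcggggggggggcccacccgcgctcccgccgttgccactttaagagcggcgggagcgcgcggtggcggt
Ldb1, chr19:46045312-46045561, minus strand: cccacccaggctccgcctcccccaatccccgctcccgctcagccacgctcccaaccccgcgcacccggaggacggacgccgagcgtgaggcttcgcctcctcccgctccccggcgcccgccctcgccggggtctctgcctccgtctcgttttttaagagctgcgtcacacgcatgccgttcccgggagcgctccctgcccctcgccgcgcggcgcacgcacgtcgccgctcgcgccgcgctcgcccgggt
Isl1, chr13:116309689-116309938, minus strand: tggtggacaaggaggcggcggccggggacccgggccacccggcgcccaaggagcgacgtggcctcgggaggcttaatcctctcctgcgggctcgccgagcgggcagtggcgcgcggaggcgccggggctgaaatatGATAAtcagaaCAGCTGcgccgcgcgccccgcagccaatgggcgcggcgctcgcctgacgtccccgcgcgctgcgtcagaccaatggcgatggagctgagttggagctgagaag
The Ssbp4 window held 2 E-boxes and 0 GATA sites, the Isl1 window held 1 of each, and the Ldb1 window held neither. Of 32536 distinct promoter windows of that length, 66.2% held an E-box and 22.5% a GATA site. The windows were rich in G and C, at 68.4% for Ssbp4, 76.0% for Ldb1 and 71.2% for Isl1. The promoter table had entries for Ssbp2, Ssbp3, Ssbp4, Ldb1, Lmo1, Lmo4, Isl1 and Rlim, but not for Ldb2 and Lmo2. A match is a description of the letters and not evidence of binding.

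Both wild-type lines expressed 1 LDB, 3 SSBP and 2 LMO genes above 5 FPKM and held Ldb2 and Lmo2 at or near 0. In MC38 WT the order was Ldb1 at 47.0 ± 2.59 FPKM, Lmo4 at 34.1 ± 1.48, Rlim at 20.8 ± 1.22, Ssbp4 at 16.3 ± 2.05, Ssbp2 at 14.4 ± 0.401, Ssbp3 at 11.3 ± 0.316, Lmo1 at 7.76 ± 0.582 and Isl1 at 1.12 ± 0.198 FPKM (SD, n = 4). The ranges of Ssbp4 and Ssbp2 overlapped, and every other neighbouring pair in that order was separate. In B16-F10 WT it was Ldb1 at 116 ± 4.82 FPKM, Rlim at 42.9 ± 1.21, Ssbp4 at 34.5 ± 2.37, Ssbp3 at 25.6 ± 4.10, Lmo4 at 24.1 ± 2.32, Lmo1 at 16.1 ± 1.16 and Ssbp2 at 8.17 ± 1.34 FPKM (SD, n = 4). There the ranges of Ssbp3 and Lmo4 overlapped and the other neighbours down to Ssbp2 did not. Ldb1 was thus the most abundant of the genes in each line, at the 91.5th percentile of genes above 0 in MC38 WT and the 97.0th in B16-F10 WT. The tables were normalised separately, so these levels stand side by side and were not tested between lines.

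Ldb2, the other LDB adaptor, and Lmo2, the LMO protein of blood and endothelial cells, were at or near 0 in every library. Ldb2 stood at 0.0369 FPKM in 1 MC38 OE library and was listed at 0 in the other 2, against values of 0 to 0.0567 FPKM in MC38 WT. In B16-F10 it was listed at 0 in all 4 KO libraries and reached 0.0402 FPKM at most in WT. Lmo2 was listed at 0 in all 7 MC38 libraries, and lay between 0.0534 and 0.182 FPKM in B16-F10 KO and between 0.0480 and 0.220 FPKM in B16-F10 WT. These genes stayed under the mean of 1 FPKM that the test required, and the exact two-sided permutation test of Lmo2 in B16-F10 gave p = 0.83. Isl1 also separated the lines, since in B16-F10 it was listed at 0 in all 4 KO libraries and in 3 of 4 WT libraries, with 0.0948 FPKM in WT library 2. Its level in MC38 is given below with the response to Ssbp4.

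**Figure D1:**
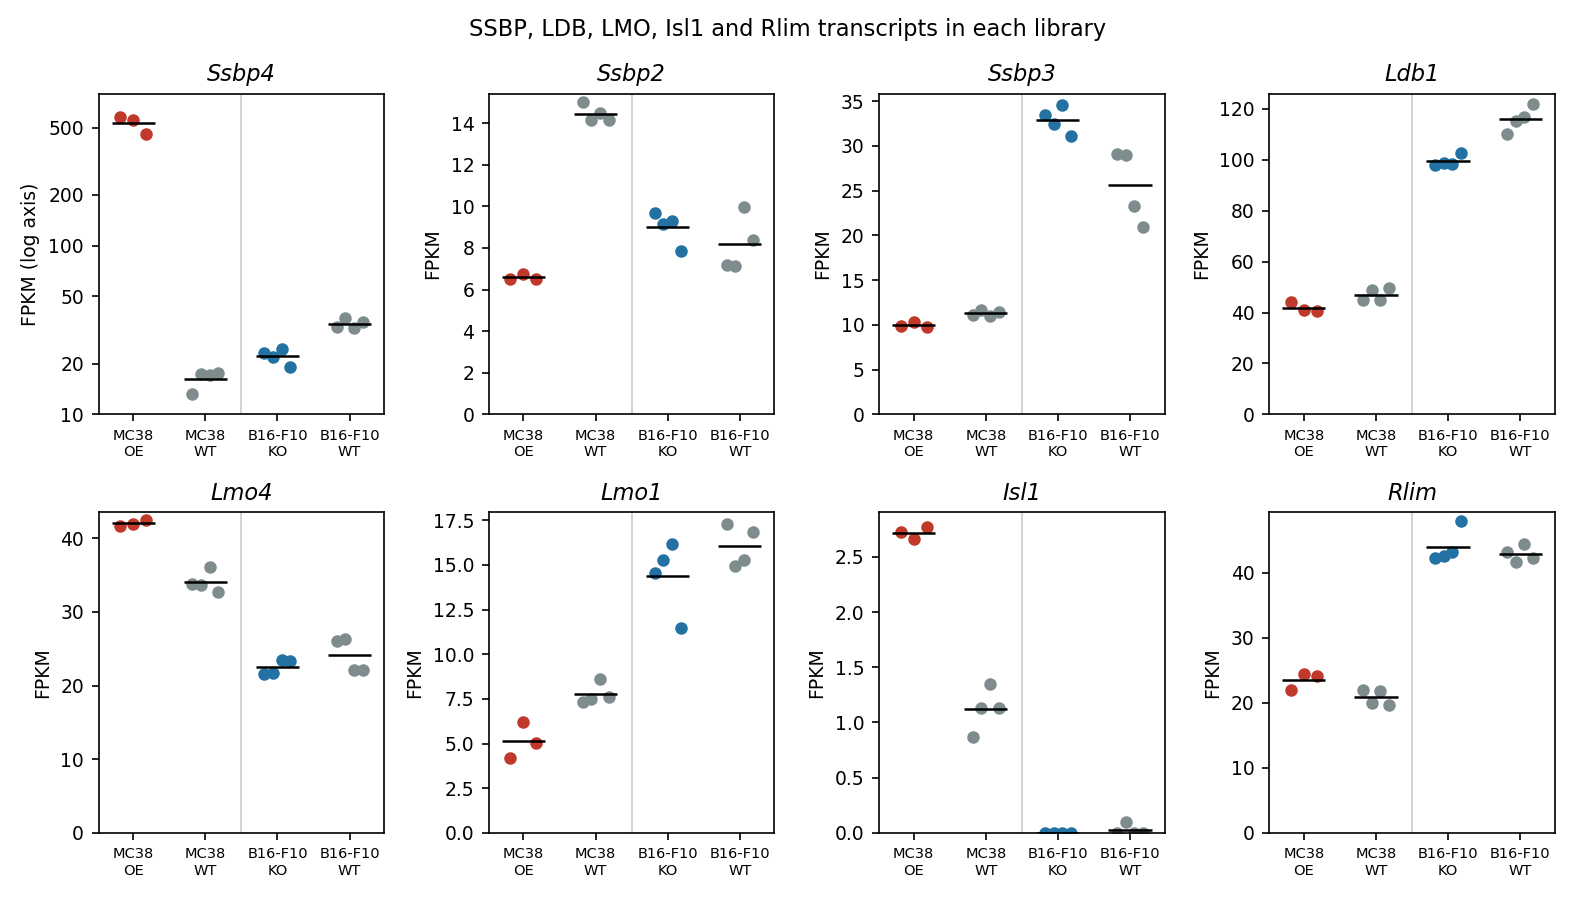
FPKM of 8 cofactor genes (vertical axes, log for Ssbp4 and linear from 0 for the others) in every library of the 4 groups, each point a library and each line a group mean. Ssbp2 lies between 6.48 and 6.76 FPKM in MC38 OE and between 14.1 and 15.002 FPKM in MC38 WT, and the B16-F10 WT points of Ssbp3 spread from 21.0 to 29.1 FPKM.

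The MC38 comparison asked how the partners of Ssbp4 stood in cells that overexpressed it. Ssbp4 rose to 32.8 times its wild-type mean, Ssbp2 fell to 45.6% of it, Isl1 and Lmo4 rose and Lmo1 fell. Smaller falls of Ssbp3 and Ldb1 and a small rise of Rlim also passed. Of the 10 genes 8 were tested, 4 passed as higher and 4 as lower at an adjusted p under 0.05 in limma, where 47.5% of all 10748 tested genes passed, 23.9% as higher and 23.6% as lower. The groups were separate for 8 of the 8, against 50.6% of all tested genes. These counts include Ssbp4 itself, whose rise was set by the design. The median log2 change of the 8 was 0.01 and that of all tested genes -0.01, and changes are differences on the log2(FPKM + 1) scale, which understates the change of low genes.

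Ssbp4 was at 581, 559 and 462 FPKM in the OE libraries, against 13.2, 17.3, 17.0 and 17.6 FPKM in WT. Every OE library lay far above every WT library, and the mean was 32.8 times the WT mean (534 ± 63.5 FPKM, n = 3, against 16.3 ± 2.05 FPKM, n = 4, SD). The log2 change was 4.95 (SE 0.10, adjusted p = 1.12e-09), and fragments of the vector copy and of the endogenous gene cannot be told apart in it. In bulk RNA, a lower or higher value cannot distinguish a different number of expressing cells from a different amount of RNA per cell.

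Ssbp2, the paralog closest to Ssbp4 in MC38 WT level, fell in every OE library. It was at 6.52, 6.76 and 6.48 FPKM in OE, against 15.002, 14.2, 14.5 and 14.1 FPKM in WT, so the groups were wide apart. OE cells held 45.6% of the WT mean, a log2 change of -1.03 (SE 0.05, 95% interval -1.13 to -0.92, adjusted p = 8.31e-08). By size of change it ranked 208 of the 10748 tested genes.

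Ssbp3, the remaining SSBP gene, was at 9.92, 10.4 and 9.81 FPKM in OE, against 11.1, 11.7, 11.0 and 11.4 FPKM in WT. The groups were separate but close, with a log2 change of -0.15 (SE 0.05, adjusted p = 0.0199). It did not pass without OE library 1 or 3 (adjusted p = 0.0655 and 0.0742), nor with libraries scaled to a common FPKM total (0.0520).

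Ldb1, the shared adaptor, was at 44.0, 40.8 and 40.6 FPKM in OE, against 44.9, 48.7, 44.8 and 49.8 FPKM in WT. OE library 1 lay just under the lowest WT library. Its log2 change was -0.17 (SE 0.05, adjusted p = 0.0190), and it did not pass without OE library 2 or 3 (adjusted p = 0.0695 and 0.0734) or with no filter on low values (0.0606). The exact two-sided permutation test of mean FPKM gave p = 0.0571 for Ldb1. That test gave 0.0286 for each tested gene in MC38 other than Ldb1 and Rlim. This is the lowest p it can give with 3 libraries against 4, so it does not grade those genes.

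The LMO genes went opposite ways. Lmo4, widely expressed in epithelial and neural crest tissues, was at 41.6, 41.9 and 42.5 FPKM in OE, against 33.8, 33.6, 36.2 and 32.7 FPKM in WT, with every OE library above every WT library (log2 change 0.30, SE 0.04, adjusted p = 1.96e-04). Lmo1, best known as an oncogene of T-cell leukaemia and neuroblastoma, was at 4.19, 6.20 and 5.03 FPKM in OE, against 7.31, 7.51, 8.62 and 7.63 FPKM in WT. All OE libraries lay below WT, and the OE libraries spread more widely (log2 change -0.52, SE 0.10, adjusted p = 0.0019). Both passed under every alternative run and with each library left out.

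Isl1, the LIM-homeodomain factor of motor neurons, islets and heart progenitors, was at 2.72, 2.66 and 2.77 FPKM in OE, against 0.865, 1.13, 1.35 and 1.13 FPKM in WT. The groups were separate, and the OE mean was 2.43 times the WT mean. On the log2(FPKM + 1) scale the change was 0.82 (SE 0.09, 95% interval 0.62 to 1.01, adjusted p = 3.62e-05), and with a pseudocount of 0.1 it was 1.22. The 5 neuroendocrine markers summed to at most 0.200 FPKM in OE and 0.184 FPKM in WT, with Chga, Neurod1, Ins1 and Ins2 listed at 0 in both.

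Rlim, the ligase that marks LDB1, was at 22.0, 24.4 and 24.1 FPKM in OE, against 22.0, 19.9, 21.8 and 19.6 FPKM in WT. The lowest OE library and the highest WT library nearly coincided. Its log2 change was 0.17 (SE 0.06, adjusted p = 0.0305), and it did not pass without OE library 2 or 3 (adjusted p = 0.111 and 0.103), without WT library 2 or 4 (0.0695 and 0.0765), or with no filter (0.0836). The exact two-sided permutation test of mean FPKM gave p = 0.0571 for Rlim.

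The B16-F10 comparison asked how the partners stood in cells edited at Ssbp4. Ssbp4 and Ldb1 fell, Ssbp3 stood higher in every KO library without passing, and Ssbp2, Lmo1, Lmo4 and Rlim overlapped between groups. Of the 10 genes 7 were tested, 0 passed as higher and 2 as lower in limma, where 2.23% of 10902 tested genes passed, 1.33% as higher and 0.899% as lower. At an unadjusted p under 0.05 there were 1 higher and 2 lower, where 21.3% of all tested genes lay under it, 13.3% as higher and 8.03% as lower. The groups did not overlap for 3 of the 7, against 13.9% of all tested genes. These counts include Ssbp4, the edited gene itself. Of all genes that passed 59.7% were higher, a share that was 73.1% with libraries scaled to a common total and 42.9% with median-of-ratios scaling.

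Ssbp4 was at 23.1, 22.0, 24.3 and 19.0 FPKM in KO, against 32.7, 37.4, 32.4 and 35.4 FPKM in WT. Every KO library lay below every WT library, and the KO mean was 64.1% of the WT mean (log2 change -0.62, SE 0.08, 95% interval -0.80 to -0.44, adjusted p = 0.00869). It passed with each library left out. Transcripts with small insertions or deletions can persist, so the mRNA does not measure how much protein was lost.

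Ldb1 was at 97.8, 98.9, 98.5 and 103 FPKM in KO, against 110.3, 115, 117 and 122 FPKM in WT. The groups were separate, and the KO mean was 85.7% of the WT mean (log2 change -0.22, SE 0.04, adjusted p = 0.0464). The change kept its direction and a size of -0.24 to -0.20 with each library left out, but it passed only when KO library 4 was the one left out (adjusted p = 0.0414). The adjusted p was 0.129, 0.158 and 0.151 without KO libraries 1, 2 and 3, and 0.0526, 0.0666, 0.0865 and 0.105 without WT libraries 1 to 4. With libraries scaled to a common total it was 0.0510. Ldb1 was thus lower in MC38 cells with more Ssbp4 transcript and in B16-F10 cells with less of it, each against its own wild type.

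Ssbp3 was at 33.5, 32.5, 34.6 and 31.1 FPKM in KO, against 29.1, 29.0, 23.3 and 21.0 FPKM in WT. All KO libraries lay above all WT libraries, but WT libraries 1 and 2 were near the KO range and libraries 3 and 4 well below it. The log2 change was 0.36 (SE 0.10, 95% interval 0.14 to 0.59, unadjusted p = 0.00505, adjusted p = 0.0855). It passed with estimated library weights (adjusted p = 0.0452), whose estimation stopped before it converged.

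Ssbp2 was lower in WT libraries 1 and 2 than in 3 and 4, the opposite of Ssbp3. It was at 9.67, 9.17, 9.29 and 7.85 FPKM in KO, against 7.19, 7.13, 9.99 and 8.38 FPKM in WT, with overlapping groups (log2 change 0.13, 95% interval -0.10 to 0.36, adjusted p = 0.504). Lmo4 was at 21.6, 21.7, 23.4 and 23.4 FPKM in KO, against 26.0, 26.3, 22.2 and 22.1 FPKM in WT. WT libraries 3 and 4 lay within the KO range and libraries 1 and 2 above it (log2 change -0.09, 95% interval -0.25 to 0.06, adjusted p = 0.484).

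Lmo1 was at 14.5, 15.3, 16.2 and 11.5 FPKM in KO, against 17.3, 14.9, 15.3 and 16.8 FPKM in WT. KO library 4 was the lowest of the 8 and the other KO libraries overlapped WT (log2 change -0.16, 95% interval -0.38 to 0.06, adjusted p = 0.375). Without that library the change was -0.06. Rlim was at 42.3, 42.6, 43.1 and 47.9 FPKM in KO, against 43.2, 41.7, 44.4 and 42.3 FPKM in WT. KO library 4 was the highest there, and the log2 change was 0.03 (95% interval -0.08 to 0.15, adjusted p = 0.751).

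**Figure D2:**
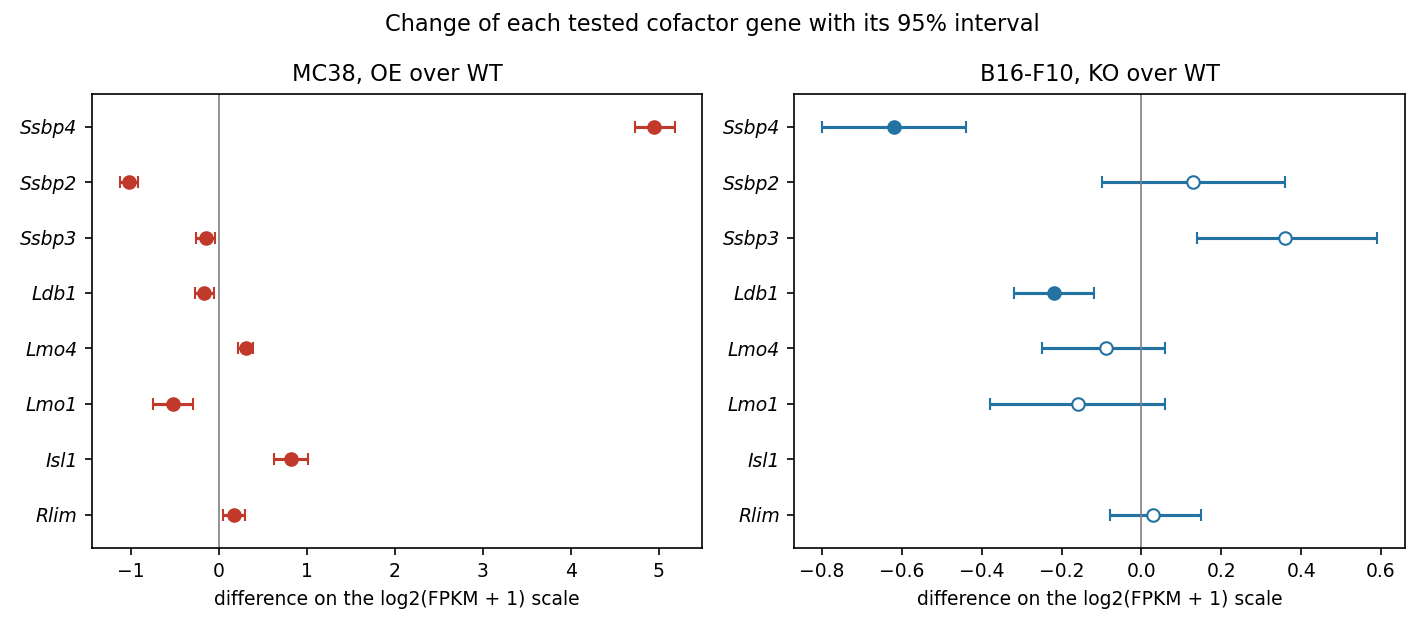
Difference on the log2(FPKM + 1) scale (horizontal axes, which differ between panels) with its 95% interval for each tested gene, OE over WT in MC38 on the left and KO over WT in B16-F10 on the right. Filled points passed an adjusted p of 0.05, open points did not, and Isl1 was not tested in B16-F10. Ssbp2 lies at -1.03 on the left and 0.13 on the right, and Ldb1 at -0.17 and -0.22.

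FPKM is scaled by gene length, so levels of the SSBP genes can be added up within a library. In MC38 OE the vector cDNA may differ in length from the annotated gene used for scaling. Sums, shares and ratios that include Ssbp4 are therefore approximate there. In MC38 the summed Ssbp2, Ssbp3 and Ssbp4 level was 597, 576 and 478 FPKM in OE, against 39.3, 43.1, 42.5 and 43.1 FPKM in WT. Ssbp4 made up 96.6 to 97.2% of it in OE and 33.7 to 40.8% in WT, where Ssbp2 held 32.8 to 38.2% and Ssbp3 25.8 to 28.1%. Ssbp2 and Ssbp3 together, a sum chosen after the values were seen, came to 16.3 to 17.1 FPKM in OE and 25.5 to 26.1 FPKM in WT. All sums, shares and ratios here are descriptions without a test.

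In B16-F10 the summed SSBP level overlapped between groups, at 66.3, 63.6, 68.2 and 58.0 FPKM in KO, against 69.0, 73.5, 65.7 and 64.8 FPKM in WT. The shares of Ssbp4 and Ssbp3 in it did not overlap. Ssbp4 held 32.8 to 35.7% in KO and 47.4 to 54.7% in WT, while Ssbp3 held 50.5 to 53.7% in KO and 32.4 to 42.2% in WT. The share of Ssbp2 overlapped, at 13.5 to 14.6% in KO and 9.71 to 15.2% in WT. Shares add up to the whole, so a lower share of the edited Ssbp4 in itself raises the others. Ssbp2 and Ssbp3 together came to 39.0 to 43.9 FPKM in KO and 29.4 to 36.3 FPKM in WT. The sum of the other SSBP transcripts was lower with overexpression in MC38, mostly through Ssbp2, and higher with knockout in B16-F10, mostly through Ssbp3. Ssbp3 did not pass there in limma (adjusted p = 0.0855). The B16-F10 WT libraries 1 to 4 held sums of 36.3, 36.1, 33.3 and 29.4 FPKM. Whether the changes in the 2 lines are related was not tested.

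**Figure D3:**
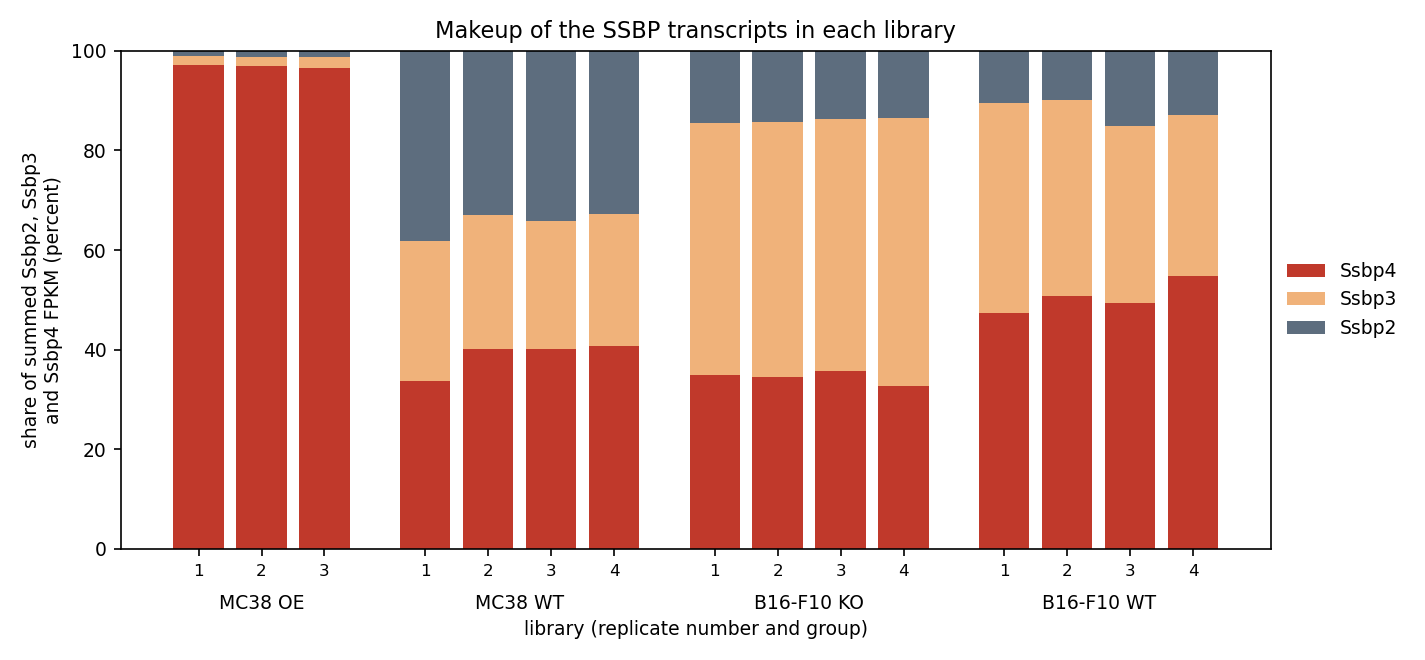
Share of Ssbp4, Ssbp3 and Ssbp2 in the summed FPKM of the 3 genes (vertical axis, percent) for each of the 15 libraries, grouped as MC38 OE, MC38 WT, B16-F10 KO and B16-F10 WT. Ssbp4 fills 96.6 to 97.2% of the bars in MC38 OE, and Ssbp3 is the largest share in B16-F10 KO at 50.5 to 53.7%.

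Set against the adaptor, the SSBP sum was 11.8 to 14.1 times the LDB sum in MC38 OE and 0.867 to 0.949 times in MC38 WT. In B16-F10 it was 0.564 to 0.693 times in KO and 0.531 to 0.637 times in WT, so those groups overlapped. The LMO sum, of which Lmo4 gave 87.1 to 90.9% in MC38 OE and 80.8 to 82.2% in MC38 WT, was 1.04 to 1.18 times the LDB sum in OE and 0.811 to 1.00 times in WT. In B16-F10 the LMO sum was 0.339 to 0.404 times the LDB sum in KO and 0.321 to 0.394 times in WT, and Lmo1 made up 32.9 to 41.1% of it in KO and 36.2 to 43.0% in WT.

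The LIM-homeodomain genes, the DNA-binding partners of LDB1, mostly stayed under the filter. Isl1, 1 of the 10 cofactor genes, is counted among them again. Of 12 in MC38 4 were tested, and 2 rose, Isl1 and Lhx6, and 2 fell, Lmx1b and Lhx2, with a median log2 change of 0.02 against -0.01 for all tested genes, of which 23.9% passed as higher and 23.6% as lower. Lmx1b, which patterns limbs, kidney and midbrain, was at 1.92 ± 0.127 FPKM in OE and 2.49 ± 0.242 FPKM in WT (SD, n = 3 and 4, adjusted p = 0.0213). Lhx3, Lhx5 and Lhx8 were listed at 0 in all MC38 libraries. In B16-F10 Lmx1b was the only one tested, at 4.96 ± 0.348 FPKM in KO and 5.33 ± 0.722 FPKM in WT (SD, n = 4 each, adjusted p = 0.638). Of the 4 LMO genes 2 were tested in each line, Lmo1 and Lmo4, whose values are given above. By limma, adjusted or not, 1 was higher and 1 lower in MC38 and 0 of either in B16-F10. Of all tested genes 47.5% passed in MC38 and 2.23% in B16-F10. At an unadjusted p under 0.05 in limma the shares were 54.3% and 21.3%.

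Partners of the LMO2 complex of blood cells, the E-protein, GATA and TAL genes with Runx1 and its cofactors, had 7 of 12 members tested in MC38, with 1 higher and 3 lower and a median of -0.14 against -0.01 for all tested genes. Those 4 of 7 stand beside 47.5% of all tested genes that passed. Runx1 fell by 0.29 on the log2(FPKM + 1) scale, at 7.27 ± 0.608 FPKM in OE and 9.10 ± 0.447 FPKM in WT (SD, n = 3 and 4, adjusted p = 0.00398). Tcf4, an E-protein, rose by 0.50, at 13.3 ± 0.423 FPKM in OE and 9.14 ± 0.350 FPKM in WT (adjusted p = 2.24e-05). Tal1, which pairs with LMO2, was listed at 0 there. In B16-F10 6 were tested and 0 passed, where 2.23% of all tested genes did. At an unadjusted p under 0.05 in limma there were 1 higher and 1 lower (13.3% and 8.03% of all tested genes). The most abundant, Tcf12, was at 72.1 ± 2.24 FPKM in KO and 71.0 ± 2.33 FPKM in WT (adjusted p = 0.816).

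SSBP and LDB proteins are also known as parts of the complex that carries beta-catenin to Wnt targets. Of 10 genes of that complex 9 were tested in MC38, and 5 rose, Tle1, Tle2, Pygo2, Ctnnb1 and Bcl9, and 0 fell by limma, adjusted or not, with a median of 0.21 against -0.01 for all tested genes. Tle2 met the filter of a mean of 1 FPKM only through OE, at 1.74 FPKM against 0.816 FPKM in WT. The filter thus favoured its entry as a rise, and it counts in the 5 and in the median. Of all tested genes 23.9% passed as higher and 47.5% in either direction. The corepressor Tle1 was at 27.7 ± 1.83 FPKM in OE and 14.3 ± 0.727 FPKM in WT (log2 change 0.91, adjusted p = 7.33e-07), and the adaptor Bcl9 at 5.42 ± 0.469 FPKM in OE and 4.53 ± 0.210 FPKM in WT (0.21, adjusted p = 0.0233). In B16-F10 9 were tested and 0 passed, where 2.23% of all tested genes did. At an unadjusted p under 0.05 in limma there were 2 higher and 0 lower of the 9, against 13.3% and 8.03% of all tested genes. Ctnnb1, beta-catenin, was the most abundant there, at 459 ± 14.7 FPKM in KO and 481 ± 10.9 FPKM in WT (adjusted p = 0.448).

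Of 18 other LIM-domain genes, most of which act at the cytoskeleton, 14 were tested in MC38, with 2 higher and 4 lower and a median of 0.06 against -0.01 for all tested genes, of which 47.5% passed. At an unadjusted p under 0.05 they were 5 higher and 4 lower, where 54.3% of all tested genes lay under it, 26.9% as higher and 27.4% as lower. Csrp2, a cytoskeletal LIM protein, was at 98.6 ± 3.73 FPKM in OE and 61.6 ± 3.02 FPKM in WT (log2 change 0.67, adjusted p = 1.34e-06). Pdlim1, which binds alpha-actinin, was at 3.57 ± 0.269 FPKM in OE and 9.17 ± 0.236 FPKM in WT (-1.16, adjusted p = 1.78e-07). In B16-F10 15 were tested and 0 passed, where 2.23% of all tested genes did. At an unadjusted p under 0.05 in limma there were 2 higher and 2 lower (13.3% and 8.03% of all tested genes). Csrp1 was the most abundant, at 237 ± 11.7 FPKM in KO and 260 ± 76.1 FPKM in WT (adjusted p = 0.816).

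The genes whose levels ran closest to Ssbp4 were sought by the highest Pearson's r of log2(FPKM + 1) over the libraries of a line. Predicted, clone and pseudogene names were left out, and genes that ran in the opposite direction were not sought. In MC38, over 7 libraries, they were Col6a2 (r = 0.9995), Oas3 (0.9992) and Cdh26 (0.9991), and in B16-F10, over 8 libraries, Amotl2 (0.9823), Slc20a1 (0.9815) and Pelo (0.9728). For Ssbp2 they were Psat1 (0.9994), Odc1 (0.9992) and Cdc42se2 (0.9989) in MC38 and Nrf1 (0.9978), Dlst (0.9795) and Rdh13 (0.9722) in B16-F10. With libraries scaled to a common total, Slc20a1 (0.9257), Cdc42se2 (0.9979) and Rdh13 (0.9745) were no longer among the closest 3, and the other named genes were. Among the cofactor genes, the 3 pairs with the largest absolute r over the 8 B16-F10 libraries were picked out. They were Ssbp4 with Ldb1 (0.86), Ssbp3 with Ldb1 (-0.92) and Ssbp2 with Lmo4 (-0.86). Libraries of a group share their treatment, and where the groups do not overlap, as for all 8 tested cofactor genes in MC38 and for Ssbp3, Ssbp4 and Ldb1 in B16-F10, such an r in large part restates the difference between groups. For Ssbp2 and Lmo4 the groups overlapped, but both genes set WT libraries 1 and 2 apart from 3 and 4, in opposite directions.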

How the data were processed

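Polyadenylated RNA from 15 libraries was sequenced with a stranded kit according to the labels. The authors deposited FPKM values by gene symbol, with a table for each line. The submitters' processing notes name GRCm39 and DESeq2 without versions. No aligner, counter or annotation was named in the sources used here. Columns were matched to samples by library name, with 0 unmatched. FPKM carries no counting interval, and library sums differ, so the scaling was varied.

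The steps between low FPKM values gave the depth, using lengths of single-transcript genes of GENCODE M21. Of these values 80.5 to 85.5% lay within 0.1 of a whole fragment, too few for a count test. A chi-square statistic put every replicate pair beyond sampling noise (5.87 to 31.5 per degree of freedom), and every library was counted. It cannot show that libraries stem from different cultures. In B16-F10 WT it was 6.87 for libraries 1 and 2 and 6.97 for libraries 3 and 4. Between those pairs it was 29.97 to 30.85, and the fit still treated the 4 libraries as separate.

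Each line was fitted alone on the log2(FPKM + 1) scale in R 4.3.3 (limma 3.58.1, trended variance). Genes needed a mean of at least 1 FPKM, and Benjamini-Hochberg adjustment ran over all genes fitted. The fit was tested on simulated data with independent noise in each library. Such data lack the split of the B16-F10 WT libraries into pairs, so they cannot show how the fit performs there. Intervals are 95% intervals of the moderated fit. Group sums, shares and correlations were computed in Python 3.11.15, and figures were drawn with matplotlib 3.10.9. The genes and lists were chosen with earlier results of these data known. Named genes are the 10 members and the highest and lowest called gene of each list, or its most abundant where none was called. Also named are the 3 genes with the highest r with Ssbp4 and with Ssbp2 per line, leaving out predicted, clone and pseudogene names. Lhx2, Lhx6, Tle2, Pygo2, the neighbours of Ssbp4 and the names of markers or genes listed at 0 are named outside that rule, with their values known.

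Alternatives were a pseudocount of 0.1 and a filter of 0.1, 5 or none. Others changed the scaling, the variance model, the library weights and the design, and left out each library in turn.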

Additional observations from a re-analysis of the deposited data

Results flagged for a closer look

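A library was taken as far from its group where the gap to its nearest neighbour took up more of the range than Dixon's 95% critical value allows for a group of 4, which chance gives in about 1 of 20 groups. It applied to 9 of 69 groups of values. In MC38 WT, library 1 had the lowest Ssbp4 level, at 13.2 FPKM, and with it the lowest SSBP sum, at 39.3 FPKM, and the lowest share of Ssbp4 in that sum, at 33.7%. Library 3 of the same group had the highest LMO sum, at 44.8 FPKM. In B16-F10 KO, library 4 had the highest Rlim level, at 47.9 FPKM, the highest share of Ssbp3 in the SSBP sum, at 53.7%, the lowest share of Lmo1 in the LMO sum, at 32.9%, and so the highest share of Lmo4, at 66.9%. In B16-F10 WT, library 2 alone had Isl1 above 0, at 0.0948 FPKM. Several of these values come from the same library and the same genes, so they are not separate observations.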

How the results depend on the processing

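In MC38 the changes of Ssbp4, Ssbp2, Lmo1 and Lmo4 passed under all 10 other settings and with each library left out, as did that of Isl1 under the 9 that tested it. With each library left out the log2 changes of Ssbp3 ranged from -0.18 to -0.14, of Ldb1 from -0.20 to -0.14 and of Rlim from 0.14 to 0.21, and each lost its call in some. Scaling to a common total left Ssbp3 at -0.13 (adjusted p = 0.0520; 0.0542 without Ssbp4 in the total, at -0.13). No filter left Ldb1 at -0.17 (0.0606) and Rlim at 0.17 (0.0836).

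In B16-F10 the number of genes that passed was 243, and 23 to 414 with each library left out, namely 27, 23, 26 and 414 without KO libraries 1 to 4 and 93, 119, 44 and 41 without WT libraries 1 to 4. It was 140 with a filter of 0.1, 73 with none and 776 with library weights, whose estimation stopped before it converged there. Ldb1 ranged from -0.24 to -0.20 over left-out libraries, and did not pass at -0.22 with a filter of 0.1 (adjusted p = 0.0515) or none (0.0595), or at -0.20 with a common total with or without Ssbp4 (both 0.0510). With library weights Ssbp3 passed at 0.33 (0.0452). Of those that did not pass, Ssbp3 ranged from 0.28 to 0.43, Ssbp2 from 0.08 to 0.22, Lmo4 from -0.13 to -0.05 and Lmo1 from -0.22 to -0.06, the last without KO library 4. Rlim ranged from -0.01 to 0.05, with the change of sign when KO library 4 was left out.

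Replicate numbers gave no sign of pairing the samples. Deviations of same-numbered libraries correlated at -0.30 to 0.17 in B16-F10 and -0.29 to -0.07 in MC38. With 3 or 4 libraries per group, these correlations cannot settle whether the numbers share a batch. With the replicate number as a block 12 genes passed in B16-F10 and 3906 in MC38, against 5107 without it. Under the block Ssbp4 in B16-F10 (-0.62, adjusted p = 0.0890), Ldb1 in B16-F10 (-0.22, 0.155) and Ssbp3 (-0.15, 0.0924), Ldb1 (-0.14, 0.102) and Rlim (0.14, 0.142) in MC38 did not pass, and no other call of these genes changed. With each library left out, the group difference of the Ssbp4 share ranged from 56.6 to 59.0 percentage points in MC38 and from -17.1 to -14.7 in B16-F10, and no difference of sums or ratios changed sign. The SSBP sum in B16-F10, KO minus WT, was -4.22 FPKM, and -2.20 without KO library 4 and -2.47 without WT library 2. The cause of the lost calls was not tested.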

Other observations

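The genes next to Ssbp4 on the chromosome were looked at after its own values had been seen, taking the 3 nearest tested protein-coding genes on each side in RefSeq order. In B16-F10, Isyna1, an inositol phosphate synthase and the nearest on one side, was at 10.6 FPKM in KO and 13.9 FPKM in WT (log2 change -0.33, SE 0.15, adjusted p = 0.241), and Pgpep1, the nearest tested on the other, at 6.90 FPKM in KO and 7.90 FPKM in WT (-0.16, SE 0.09, adjusted p = 0.321). None of the 6 passed in limma there, where 2.23% of all tested genes did. In MC38, Isyna1 was at 21.9 FPKM in OE and 25.6 FPKM in WT (-0.21, SE 0.07, adjusted p = 0.0403), and the other 5 did not pass. Of all tested genes in MC38 47.5% passed, so a passing neighbour does not stand out there.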
